A study of Mus musculus with 21 samples.

Results

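Gamma-aminobutyric acid (GABA) is the main inhibitory transmitter of the striatum, and 8 genes of its life cycle are described here in mouse striatum that had received Cas9 virus. They are Gad1, Gad2, Slc32a1, Slc6a11, Abat, Gabra2, Gabra4 and Gabrd, picked by gene symbol out of the 41128 symbols in the table of normalized read counts, and all 8 were found in it. The rule itself is a list of symbols and uses no measured value, but the list was drawn up with earlier results of these data known.

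Nearly all neurons of the striatum release GABA, the projection neurons (medium spiny neurons) and the interneurons alike. GABA is made from glutamate by the decarboxylases GAD67 (Gad1) and GAD65 (Gad2), is loaded into synaptic vesicles by VGAT (Slc32a1), is taken up again by transporters such as GAT3 of astrocytes (Slc6a11), and is broken down in mitochondria by GABA transaminase (Abat). It opens GABA-A receptors, chloride channels built of several subunits, among them alpha 2 (Gabra2) of synapses and alpha 4 (Gabra4) and delta (Gabrd), which pair in receptors outside the synapse that respond to ambient GABA.

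The 21 libraries came from striatal tissue of wild type mice. The protocol has adeno-associated virus (AAV, a gene carrier that does not replicate) put into the striatum and the tissue collected 3 weeks later. They fall into 2 sets by the numbering of their titles and by the authors' scaling. In set A there were 3 WT, 3 Cas9 and 3 GCas9 libraries; in set B there were 4 GFP, 4 Cas9 and 4 GCas9 libraries. Cas9 cuts DNA where a guide RNA leads it, and GFP, a fluorescent protein, served as control cargo. The labels do not explain the name GCas9, which is known from this study as Cas9 joined to part of Geminin, a protein that cells degrade in part of the cell cycle. All groups stand under one injection protocol, so the labels leave unsaid whether WT mice received a virus, and the age stands as 3 weeks under one label and as 3 months under another. No promoter, guide, dose or count of pooled animals was given, and nothing states that libraries of a group came from separate animals, so the p-values below measure the spread between these libraries. Set A libraries held 20.34 to 28.05 M reads on genes and set B libraries 6.09 to 11.07 M, where the Cas9 libraries (6.09 to 7.69 M) were the shallowest. The sets were normalized apart by the authors, and groups are tested within a set, with 1 test of whether GCas9 against Cas9 differs between the sets. Markers of spiny neurons were high in every library, as the tissue label says, with Ppp1r1b, which encodes the spiny neuron phosphoprotein DARPP-32, at 66223.7 ± 1870 normalized counts in WT and 23590.1 ± 3080 in GFP (SD). Of set A, 2 libraries stood apart. Replicate 1 of Cas9 had a summed level of 294212 over 10 ependymal and choroid plexus markers against 1300.8 to 1769.1 in WT, and replicate 3 of GCas9 had the highest reactive astrocyte level of the set, 44447.8 over that list against 5185.1 to 5621 in WT.

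The stretches of DNA just before the start of 3 members are shown because these are the genes that reached an unadjusted p under 0.05 in at least 1 comparison. They are the 250 bases before the RefSeq start (GRCm38.p6), read 5′ to 3′ on the strand of the gene, with capitals marking matches on either strand to 4 short motifs. The motif TATAAA is the core of the TATA-binding site, the motif CCAAT is the site of NF-Y, the motif GGGCGG is the GC box bound by SP1, and the motif TGACG is the core of the CREB site.
Slc6a11, chr6:114130991-114131240, plus strand: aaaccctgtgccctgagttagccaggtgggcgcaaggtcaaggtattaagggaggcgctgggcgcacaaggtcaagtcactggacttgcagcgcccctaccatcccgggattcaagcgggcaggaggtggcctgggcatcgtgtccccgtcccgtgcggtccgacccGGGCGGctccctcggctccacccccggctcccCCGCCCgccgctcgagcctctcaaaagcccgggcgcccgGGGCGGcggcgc
Slc32a1, chr2:158610508-158610757, plus strand: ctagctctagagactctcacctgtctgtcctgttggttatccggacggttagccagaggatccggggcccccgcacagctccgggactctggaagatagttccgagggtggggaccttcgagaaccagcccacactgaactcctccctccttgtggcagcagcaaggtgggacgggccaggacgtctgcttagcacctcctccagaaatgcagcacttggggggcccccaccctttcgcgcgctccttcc
Gabra2, chr5:71095850-71096099, minus strand: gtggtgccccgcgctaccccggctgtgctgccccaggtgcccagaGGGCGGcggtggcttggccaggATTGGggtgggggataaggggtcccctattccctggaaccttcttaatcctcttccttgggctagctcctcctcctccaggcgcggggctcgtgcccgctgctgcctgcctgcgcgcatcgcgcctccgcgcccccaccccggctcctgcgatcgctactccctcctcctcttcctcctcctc

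The Slc6a11 stretch held 3 GC boxes and 25 CpG dinucleotides at a GC content of 71.2%, higher than in 92.2% of the 32851 RefSeq promoters of the same length. The Gabra2 stretch held 1 GC box and 1 CCAAT match at 70% GC, and the Slc32a1 stretch held none of the 4 motifs at 62.4% GC. No match overlapped another. Of all promoters, 32.7% held a GC box, 33.8% held the NF-Y motif, 12.4% the TATA motif and 17.8% the CREB motif. Matched promoters existed for 6 of the 8 members. Of the other members matched, Gad1 had 1 TATA motif and 1 GC box, Gad2 had 1 NF-Y and 1 CREB motif, and Gabra4 had 1 NF-Y motif and 2 GC boxes. A match is a description of the letters and not a bound site.

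In the annotation (GENCODE M21, GRCm38), Gad1 lies on chromosome 2 from 70553072 to 70602014 (plus strand), Gad2 on chromosome 2 from 22622205 to 22693874 (plus) and Slc32a1 on chromosome 2 from 158610767 to 158615748 (plus). Slc6a11 lies on chromosome 6 from 114131241 to 114249952 (plus). Abat spans 8513429 to 8621568 of chromosome 16 (plus), Gabrd 155384980 to 155398112 of chromosome 4 (minus), and Gabra2 and Gabra4 lie on chromosome 5 (minus) from 70957597 to 71095849 and from 71569749 to 71658308. Antisense genes overlap Gad1 (Gad1os) and Slc32a1 (Gm14205), a pseudogene on the other strand (Gm8132) lies within Slc6a11, and the first bases of Gabra4 overlap those of Gabrb1, which starts at 71658113 on the other strand. Whether the authors counted by strand is not given in the sources used here, so reads of these overlapping pairs cannot be told apart.

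Per kilobase of exon, the vesicular transporter, the enzymes and the delta subunit were the most abundant members in WT libraries of set A. The length was that of all annotated exons of a gene joined, 7639 bases for Gad1, 7748 for Abat and 2797 for Slc32a1. The longest transcripts of these genes have 3601, 4636 and 2797 bases, so the order below holds only for the length used. Slc32a1 was at 2255.9 ± 54.9 normalized counts per kb, above Abat (1939.5 ± 103), Gad1 (1905 ± 110) and Gad2 (1903.9 ± 13), and these last 3 did not differ beyond their spread. Gabrd followed at 1430.6 ± 58.4 per kb, then Gabra4 (738.6 ± 40.5), Slc6a11 (545.9 ± 20.9) and Gabra2 (234.3 ± 29.5; SD, n = 3 for all). In the GFP libraries of set B the order was Abat (902.3 ± 40.1 per kb), Gad1 (835.5 ± 67.4), Gabrd (728.6 ± 39.4), Gad2 (640.7 ± 17.5), Gabra4 (396.4 ± 27.8), Slc32a1 (239.1 ± 18.3), Slc6a11 (138.5 ± 15.2) and Gabra2 (136.2 ± 29.6; SD, n = 4). Abat and Gad1 overlapped within their SDs there, as did Slc6a11 and Gabra2. By this exon length, Slc32a1 stood first of the 8 in one set and sixth in the other.

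**Figure D1:**
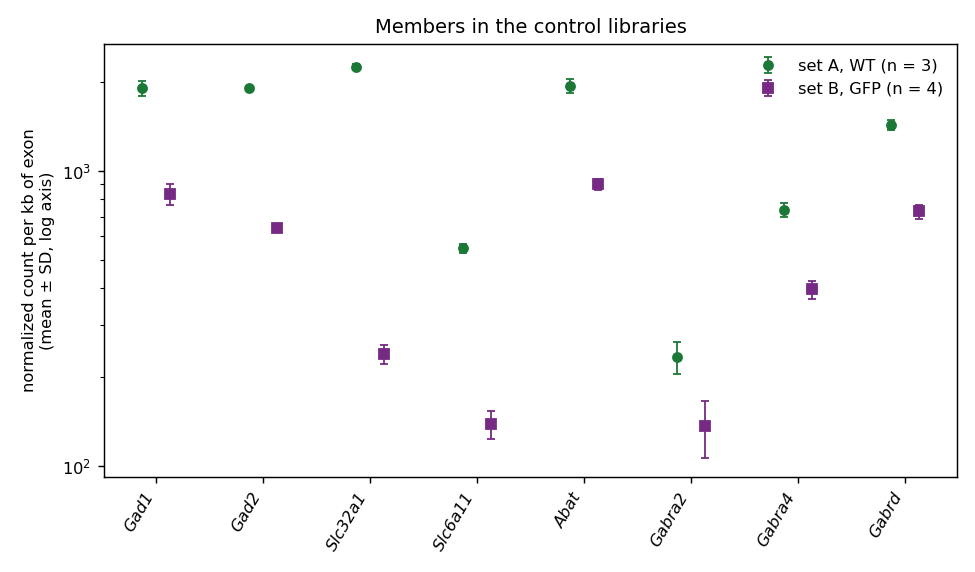
Mean normalized count per kb of exon with SD (log axis) of the 8 members in the WT libraries of set A (circles, n = 3) and the GFP libraries of set B (squares, n = 4). Slc32a1 is at 2255.9 per kb in WT and at 239.1 in GFP. Levels can be compared between genes of 1 set only for the joined exon length used, and not between sets.

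Gabbr1, the ligand-binding subunit of the GABA-B receptor, is given for comparison by the same kind of exon length. It was at 3000.1 ± 55.3 per kb in WT, above all members. In GFP it was at 563.3 ± 28.3, below Abat, Gad1, Gabrd and Gad2.

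The study compared Cas9, GCas9 and control virus, and in the 6 pairwise comparisons within the sets the members differed by small amounts. No member passed the threshold (adjusted p under 0.05) in any of the 48 tests by limma, a linear model with a moderated variance, and none by edgeR's quasi-likelihood test. Of all genes, limma called 0.00628% in Cas9 against WT, 0.00628% in GCas9 against WT and 0.0% in GCas9 against Cas9 of set A, and 0.0% in each comparison of set B, while edgeR called 0.00628% in GCas9 against WT and 0.0% in the other 5 comparisons. At an unadjusted p under 0.05 there were 6 of 48 by limma, spread over Slc6a11, Slc32a1 and Gabra2, and 5 by edgeR. DESeq2, run on whole reads recovered from the table, called 2 of 48, both of them Slc6a11. Its shares are of the genes to which it gave an adjusted p, while those of limma and edgeR are of all genes tested. In set A it called 0.734% of 15807 in Cas9 against WT, 1.38% of 15807 in GCas9 against WT and 0.0398% of 10039 in GCas9 against Cas9. In set B it called 0.158% of 8841 in Cas9 against GFP, 0.266% of 15402 in GCas9 against GFP and 0.0% of 15402 in GCas9 against Cas9. The 3 comparisons within a set share libraries and are not independent of each other.

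At the unadjusted threshold, 1 member (Slc32a1) was lower with Cas9 than in WT, where 5.65% of all genes were lower and 6.17% higher. In GCas9 against WT 1 member (Slc6a11) was lower, with 2.33% of all genes lower and 4.44% higher. In GCas9 against Cas9 of set A 1 member (Slc6a11) was lower and 1 (Gabra2) higher, with 3.07% of all genes lower and 2.38% higher. In set B, Cas9 against GFP had 1 member lower (Slc32a1; 3.01% of all genes lower, 3.23% higher), GCas9 against GFP had none (2.76% lower, 3.71% higher) and GCas9 against Cas9 had 1 higher (Slc32a1; 1.57% lower, 2.27% higher). Groups that did not overlap gave 1, 4 and 1 members lower and none higher in the 3 comparisons of set A, where 8.86%, 7.02% and 4.45% of all genes were lower that way and 10.7%, 9.16% and 4.4% higher. In set B no member separated 2 groups fully, against 2.05%, 1.66% and 0.797% of all genes lower and 2.63%, 2.5% and 1.23% higher in Cas9 against GFP, GCas9 against GFP and GCas9 against Cas9.

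**Figure D2:**
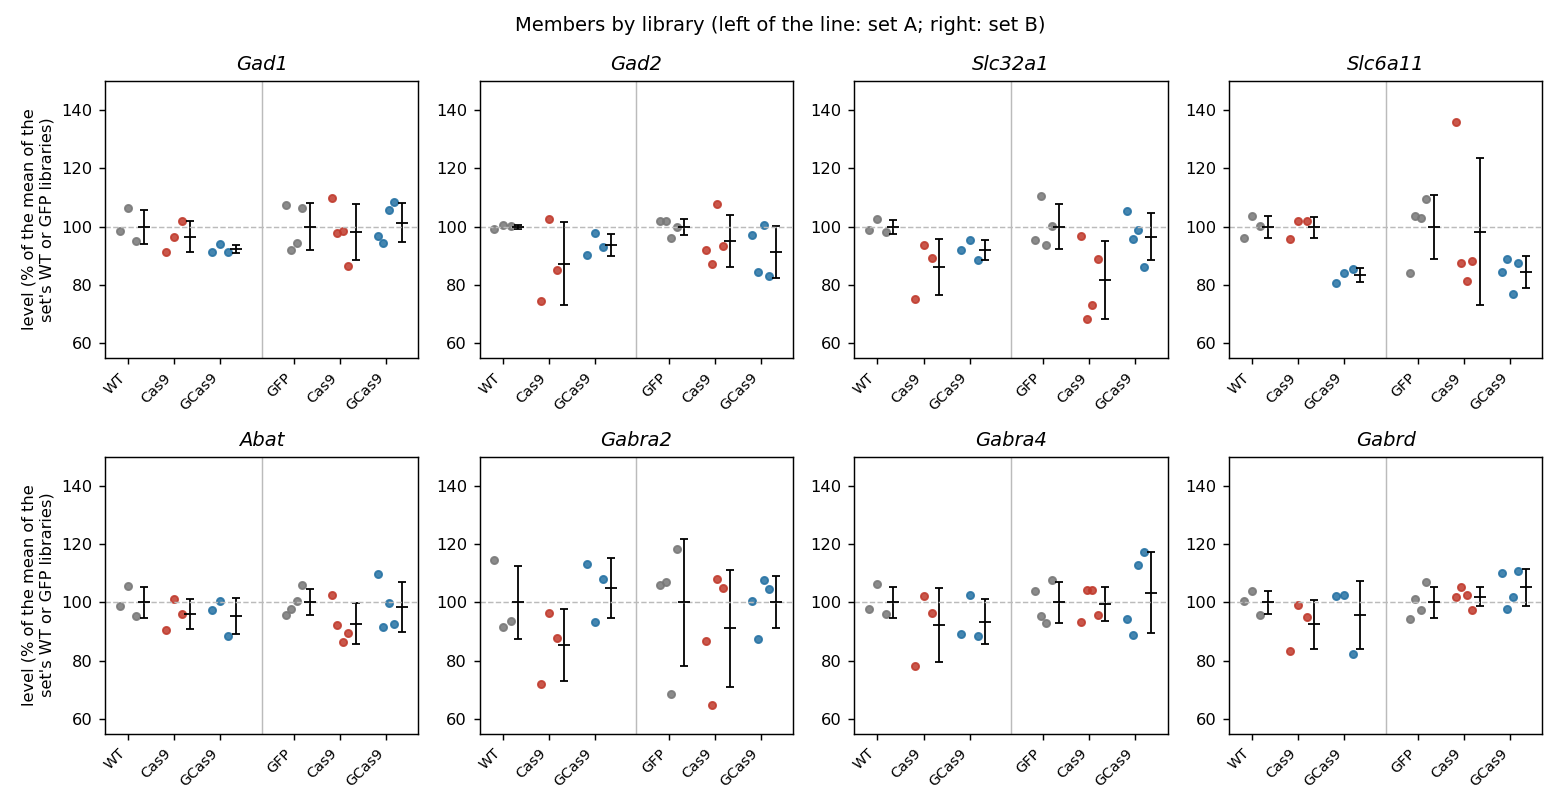
Level of each member in each library as a percentage of the mean of the WT (set A) or GFP (set B) libraries of its set, with group mean and SD as bars. Slc6a11 in the 3 GCas9 libraries of set A lies below all WT and Cas9 libraries, and the groups of set B overlap for every member.

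The GABA-making enzymes differed between groups by amounts that did not pass. Gad1, whose product makes most of the basal GABA of the brain, was at 14350.8, 15475.9 and 13830.1 normalized counts in the 3 WT libraries, at 13299.8, 14054.9 and 14828.3 with Cas9 and at 13299.3, 13664.6 and 13311.4 with GCas9. All GCas9 libraries lay below all WT libraries and the Cas9 libraries overlapped both. The log2 fold change of GCas9 against WT was -0.11 ± 0.06 (SE) and did not pass (limma adjusted p = 0.749). In set B, Gad1 was at 6856.3, 5861.1, 6018.9 and 6791.8 with GFP, at 7005.6, 6246.6, 6290.9 and 5526.8 with Cas9 and at 6179.2, 6027.5, 6748 and 6915.9 with GCas9. These groups overlapped throughout, with log2 fold changes of -0.03 to 0.05.

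Gad2, whose product is bound to synaptic vesicles, was at 11108.2, 11260.6 and 11193.2 in WT, at 8316.8, 11469.3 and 9517 with Cas9 and at 10105.4, 10955.7 and 10403.7 with GCas9. The WT libraries lay close together, and the Cas9 libraries lay both below and above them. Cas9 against WT gave -0.21 ± 0.10 (limma adjusted p = 0.442), which became -0.10 without Cas9 replicate 1, the library with the choroid plexus markers. GCas9 against WT gave -0.09 ± 0.10 (limma adjusted p = 0.858) with no overlap. In set B, Gad2 was at 3619.9 to 3842.3 with GFP (median 3798.7), at 3468.9, 3285.9, 4060.2 and 3518 with Cas9 and at 3657.3, 3173.7, 3782.5 and 3122.2 with GCas9. Of the Cas9 libraries 3 lay below and 1 above all GFP libraries. The difference of GCas9 from GFP was -0.14 ± 0.08 and that of Cas9 from GFP -0.08 ± 0.08 (limma adjusted p = 0.8 and 0.902).

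The ratio of Gad1 to Gad2 within a library, which does not depend on how a library was scaled, was 1.3 ± 0.07 in WT, 1.46 ± 0.21 with Cas9 and 1.28 ± 0.03 with GCas9 in set A. In set B it was 1.7 ± 0.13 with GFP, 1.76 ± 0.24 with Cas9 and 1.9 ± 0.23 with GCas9. The groups overlapped in all 6 comparisons (exact permutation test, two-sided, p from 0.2 to 0.7). Over all 12 ratio tests described here no adjusted p was under 0.96. An exact test cannot go below 0.1 for groups of 3 or below 0.0286 for groups of 4.

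The vesicular GABA transporter Slc32a1 was lower in the Cas9 libraries of both sets without passing the threshold. In set A it was at 6244.7, 6485 and 6199.2 in WT, at 4753.2, 5915.6 and 5639 with Cas9 and at 5814.5, 6012.2 and 5586.9 with GCas9. All Cas9 and all GCas9 libraries lay below all WT libraries. Cas9 against WT gave -0.22 ± 0.08 (unadjusted p = 0.0201, limma adjusted p = 0.405), a difference in level of -14.2% with a 95% interval from -24.1% to -2.99%. The difference was -0.13 without Cas9 replicate 1, which was the lowest library. GCas9 against WT gave -0.12 ± 0.08 (limma adjusted p = 0.771) and GCas9 against Cas9 0.10 ± 0.08 (limma adjusted p = 0.945).

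In set B, Slc32a1 was at 638.8, 740.4, 626.2 and 669.7 with GFP, at 648.2, 455.9, 489.8 and 595.5 with Cas9 and at 704.8, 639.7, 662.1 and 576.7 with GCas9. Of the Cas9 libraries 3 lay below all GFP libraries and replicate 1 lay among them, while 2 of the 4 GCas9 libraries lay above all Cas9 libraries. Cas9 against GFP gave -0.30 ± 0.11 (unadjusted p = 0.0156, limma adjusted p = 0.781) and GCas9 against Cas9 gave 0.25 ± 0.11 (unadjusted p = 0.0384, limma adjusted p = 0.995). Both rest in part on the same 4 Cas9 libraries, which were also the shallowest of the set, and the part of depth was not tested. GCas9 against GFP gave -0.05 ± 0.11. In Cas9 against GFP, 1.84% of all genes had a smaller p than Slc32a1, and in Cas9 against WT 4.87%. In bulk tissue, fewer cells of a type and less RNA per cell cannot be told apart. Markers of spiny neurons, the most numerous GABA neurons here, were lower in 20 of 21 genes with Cas9 than in WT in set A (median log2 fold change -0.10; summed level 397422 to 489961.5 against 473913.6 to 509882.5 in WT) and in 11 of 21 with Cas9 in set B (median -0.00; 182816.8 to 211272.7 against 175222.9 to 211749.2 with GFP). Without Cas9 replicate 1 of set A, 14 of 21 were lower than in WT (median -0.02). None of these genes was at 0 in any group, and the part of cell numbers in the Slc32a1 values was not tested.

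The ratio of Slc32a1 to Gad1, chosen after its values were seen and given without a test, was 0.434 ± 0.0146 in WT, 0.386 ± 0.0322 with Cas9 and 0.432 ± 0.011 with GCas9 in set A, and 0.106 ± 0.0146 with GFP, 0.0878 ± 0.0157 with Cas9 and 0.1 ± 0.0131 with GCas9 in set B. The Cas9 mean was the lowest of the 3 groups in each set, and the Cas9 range overlapped that of the control group in each.

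**Figure D3:**
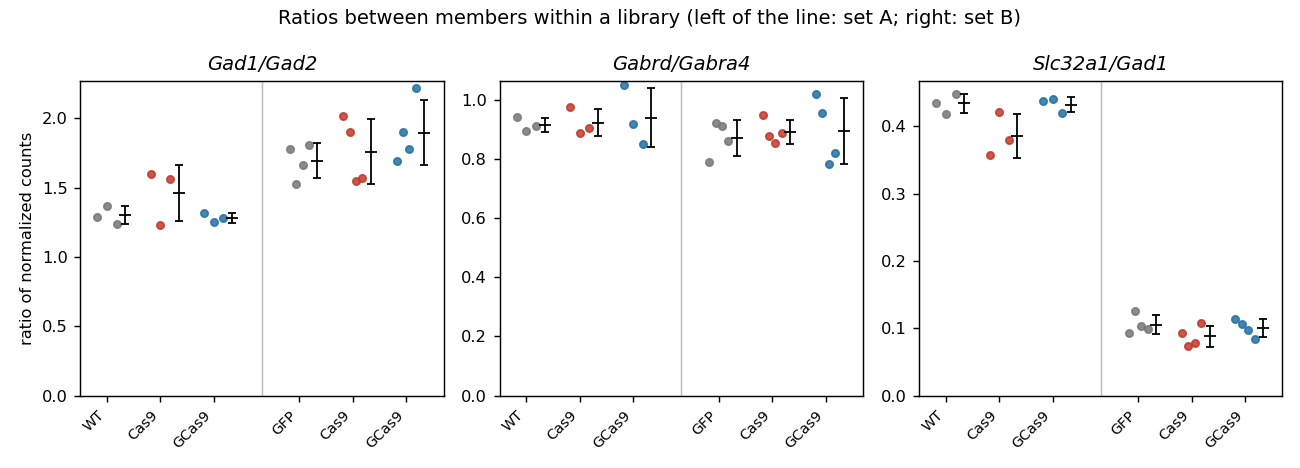
Ratios of normalized counts within each library for 3 pairs of members, with group mean and SD as bars, for set A (left of the line, n = 3 each) and set B (right, n = 4 each). Slc32a1 over Gad1 has its lowest mean with Cas9 in each set, 0.386 in set A and 0.0878 in set B, with overlap between Cas9 and the controls.

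The member with the smallest p-values was Slc6a11, which encodes GAT3, the GABA transporter of astrocytes. In set A it was at 2649.8, 2861.1 and 2759.5 in WT, at 2637.1, 2805.4 and 2807.9 with Cas9 and at 2227.4, 2315.6 and 2358 with GCas9. The 3 GCas9 libraries were the lowest of the 9, and WT and Cas9 overlapped almost fully. GCas9 differed from WT by -16.5% (95% interval -22.8% to -9.8%; log2 fold change -0.26 ± 0.05, unadjusted p = 0.000527, limma adjusted p = 0.495) and from Cas9 by -16.3% (-22.6% to -9.59%; -0.26 ± 0.05, unadjusted p = 0.000577, limma adjusted p = 0.89). Of 15924 genes tested, 0.0942% had a smaller p in GCas9 against WT and none in GCas9 against Cas9, and in both the adjusted p stayed above the threshold. Cas9 against WT gave -0.00 ± 0.05 for Slc6a11, with a 95% interval of the level from -7.68% to 7.82%.

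The call for Slc6a11 depended on the test. DESeq2 gave an adjusted p of 0.00113 for GCas9 against WT, where it called 218 genes, and of 0.0202 for GCas9 against Cas9, where it called 4. Under the 7 other alternatives, edgeR among them, the adjusted p ran from 0.306 to 0.663 against WT and from 0.76 to 0.999 against Cas9. With each library left out in turn the log2 fold change ran from -0.29 to -0.23 in both comparisons, with limma adjusted p of 0.396 to 0.976 and of 0.149 to 0.989. WT and GCas9 libraries of the same number deviated together in set A (r of 0.112 to 0.284), while those of WT and Cas9 did not throughout (-0.019 to 0.322). With the replicate number as a block, limma called 2 genes in GCas9 against WT in place of 1, with no member among them.

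In set B, Slc6a11 was at 588.3, 724.2, 719.6 and 765.3 with GFP, at 950.8, 611.6, 570.1 and 617.6 with Cas9 and at 591.1, 622.5, 537.7 and 612.5 with GCas9. The GCas9 libraries overlapped both other groups, and the first Cas9 library was the highest of the 12. GCas9 against GFP gave -0.24 ± 0.14 (limma adjusted p = 0.8; 95% interval of the level -31% to 4.17%) and GCas9 against Cas9 gave -0.19 ± 0.14 (limma adjusted p = 0.995). The latter was -0.02 without Cas9 replicate 1, and Cas9 against GFP moved from -0.05 ± 0.14 to -0.22 without that library. That library also held the highest summed level of ependymal and choroid plexus markers of set B, 10862.9 against 452.2 to 592.5 with GFP. Cas9 replicate 1 of set A, which stood apart by the same markers, had the lowest Slc6a11 value of its group, 2637.1. The part of those cells in either Slc6a11 value was not tested. The difference between the sets in GCas9 against Cas9 was itself tested and was 0.07 ± 0.18 (limma adjusted p = 0.996).

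Other astrocyte genes of set A were not lower with GCas9 than in WT as a list, and were mostly lower with GCas9 than with Cas9, as Slc6a11 was. Of 18 astrocyte markers, which leave out Slc6a11, 18 were higher with Cas9 than in WT (median 0.17), 9 were higher and 9 lower with GCas9 than in WT (median -0.00, or 0.05 with quantile normalization), and 15 were lower with GCas9 than with Cas9 (median -0.14), all without a call. Their summed level was 142086.5 to 150416.4 in WT, 155232.5 to 169809.7 with Cas9 and 139011.8 to 157289.3 with GCas9, and none was at 0. Slc1a2, the main glutamate transporter of astrocytes, was at 52295.2 ± 2650 in WT, 59035.2 ± 424 with Cas9 and 53225.2 ± 8500 with GCas9. Aqp4, the astrocyte water channel, was at 1829.2 ± 142, 3012.3 ± 319 and 3437.1 ± 1490, and Gfap, a filament of reactive astrocytes, at 1496.9 ± 239, 8873.4 ± 3670 and 10347.5 ± 8860. Reactive astrocyte genes were higher in 24 of 26 with Cas9 (median 0.80) and in 24 of 26 with GCas9 (median 0.96) against WT, the latter 0.52 without GCas9 replicate 3 (21 of 24 higher). In set B the same list was lower in 16 of 25 with Cas9 (median -0.14) and in 19 of 25 with GCas9 (median -0.38) against GFP. In set B the astrocyte markers were higher in 16 of 18 with GCas9 than with GFP (median 0.11), where the value of Slc6a11 was negative. The part of astrocyte numbers or of their reactive state in the Slc6a11 values was not tested.

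**Figure D4:**
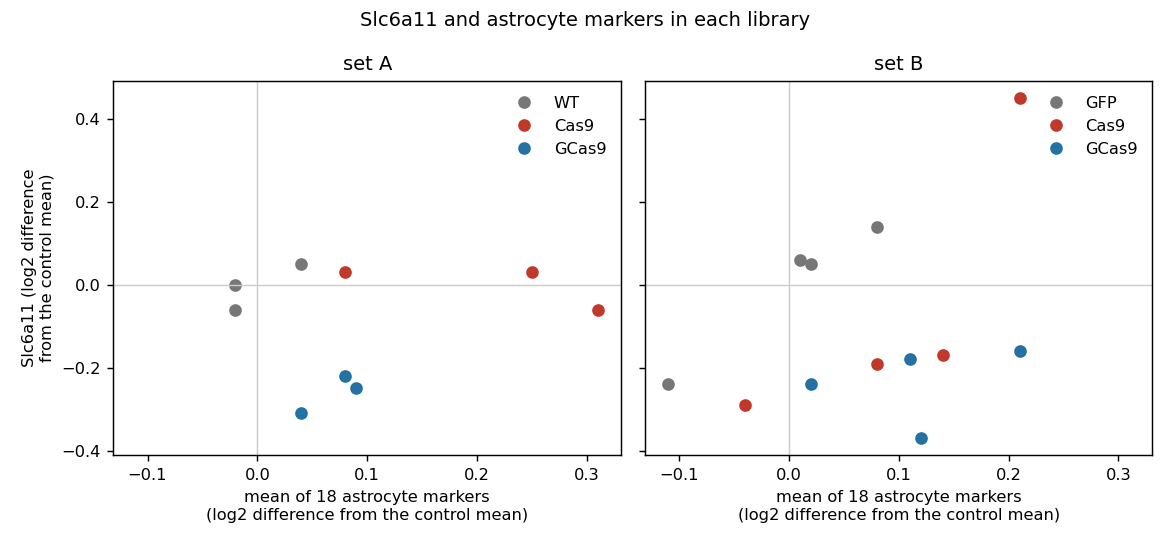
Slc6a11 (vertical axis) against the mean of 18 astrocyte markers (horizontal axis) in each library, both as log2 difference from the mean of the WT libraries (set A) or GFP libraries (set B). The GCas9 libraries of set A lie at 0.04 to 0.09 for the markers and at -0.31 to -0.22 for Slc6a11, and the Cas9 libraries at 0.08 to 0.31 and at -0.06 to 0.03.

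Abat, which breaks GABA down to succinic semialdehyde, overlapped between all groups. It was at 14841.7, 15903.5 and 14337.3 in WT, at 13625.2, 15210.6 and 14450 with Cas9 and at 14635, 15083.4 and 13278.6 with GCas9. In set B it was at 6697.4 to 7407.8 with GFP (median 6929.3), at 7180.6, 6442.6, 6050.2 and 6259.9 with Cas9 and at 7678.6, 6393.7, 6982.3 and 6467.4 with GCas9. In set B, 3 of 4 Cas9 libraries lay below all GFP libraries (-0.11 ± 0.08, limma adjusted p = 0.845). Aldh5a1, which takes the next step of the breakdown, was the pathway gene of smallest p for GCas9 against Cas9 in set B, at 490.1 against 418.9 (0.23 ± 0.09, unadjusted p = 0.0176, limma adjusted p = 0.995).

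Gabra2, of synaptic receptors, was the receptor subunit among the members with an unadjusted p under 0.05. It was at 2050.1, 1642.2 and 1678.8 in WT, at 1290.5, 1727.6 and 1568.8 with Cas9 and at 2026.1, 1671.6 and 1935.1 with GCas9. The GCas9 and Cas9 libraries overlapped by 1 library on each side. GCas9 against Cas9 gave 0.30 ± 0.13 (unadjusted p = 0.0415, limma adjusted p = 0.901), or 0.18 without Cas9 replicate 1, and 2.38% of all genes were higher at an unadjusted p under 0.05 there. Set B gave 0.16 ± 0.17 for the same comparison (limma adjusted p = 0.995), or 0.005 without Cas9 replicate 2, at 902.2, 672.8, 1122.5 and 1092.8 with Cas9 and 1045.6, 911.1, 1120.4 and 1088 with GCas9, while GFP ran from 712.9 to 1232.1 (median 1108.6).

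Gabra4 and Gabrd, the pair of the extrasynaptic receptor, had normalized counts of similar size within a set, before division by exon length. Their Pearson correlation over libraries was 0.79 in set A and 0.44 in set B, which was not particular to this pair. In set A the r was larger for Gabra4 with Slc32a1 (0.88), Gad2 (0.85) and Abat (0.84), and for Gabrd with Abat (0.92). In set B it was larger for Gabra4 with Gad1 (0.59). In set A Gabra4 was at 4392.8, 4773.9 and 4312.8 in WT, at 3506.4, 4596.2 and 4324.1 with Cas9 and at 4010.9, 4602.1 and 3975.3 with GCas9. Gabrd was at 4134.9, 4268.7 and 3935.1 in WT, at 3420.1, 4080.5 and 3910.4 with Cas9 and at 4201.7, 4218.5 and 3387.2 with GCas9. The lowest values of both genes with Cas9 came from replicate 1. In set B the 12 libraries ran from 2142 to 2827.5 for Gabra4 and from 1976.4 to 2320.2 for Gabrd, with all groups overlapping. Their ratio, Gabrd to Gabra4, had group means from 0.916 to 0.939 in set A and from 0.871 to 0.894 in set B, and overlapped in all 6 comparisons (exact permutation test, two-sided, p from 0.629 to 0.971). The 95% interval for Gabrd ran from -20.8% to 7.45% for Cas9 against WT and from -7.23% to 12% for Cas9 against GFP.

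**Figure D5:**
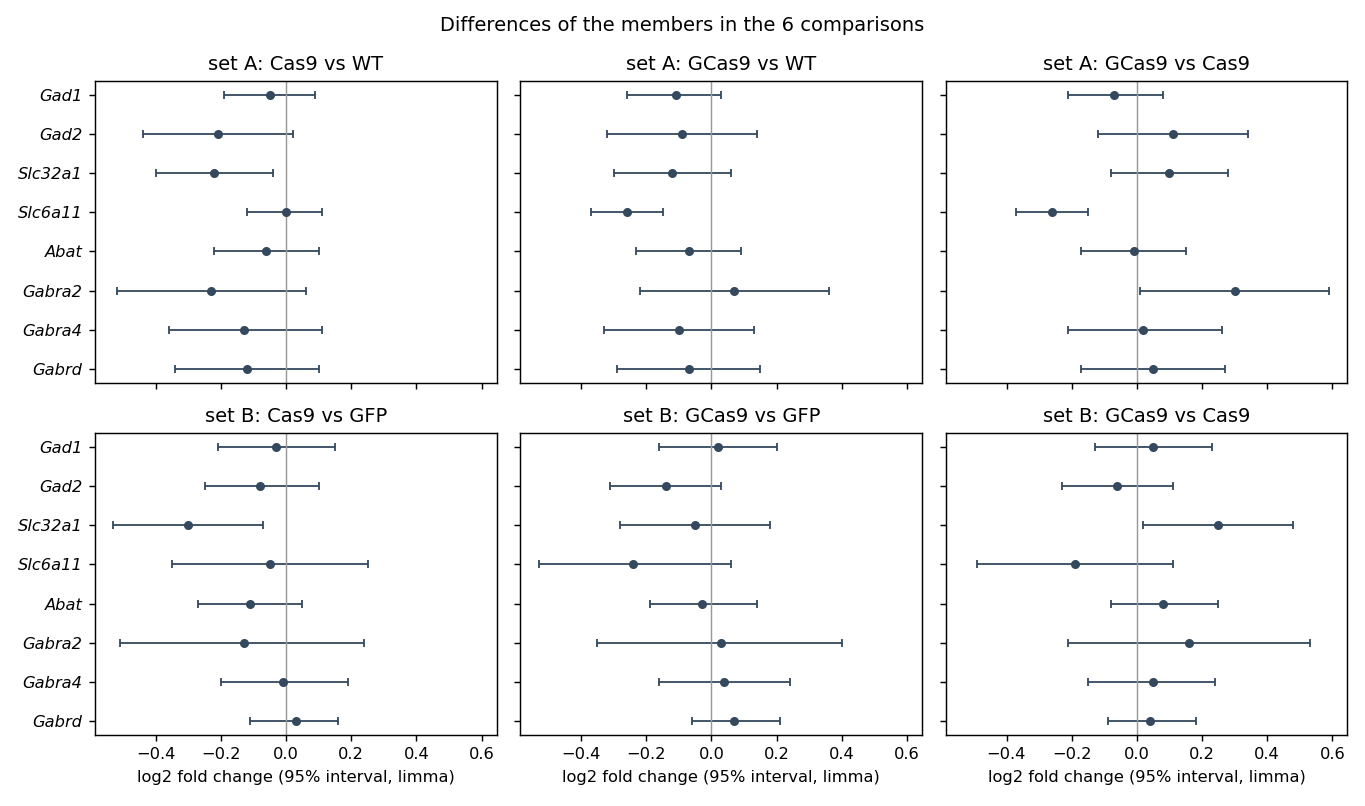
Log2 fold change of each member with its 95% interval (limma) in the 6 comparisons, with 0 as the line of no difference. The intervals of Slc6a11 for GCas9 in set A, from -0.37 to -0.15 against both WT and Cas9, are the ones farthest from 0, and no member passed after adjustment over all genes.

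As a list, 8 of 8 members were lower with Cas9 than in WT (median -0.12), 7 of 8 with GCas9 than in WT (median -0.10) and 3 of 8 with GCas9 than with Cas9 (median 0.04), where 50.9%, 50.1% and 45.7% of all genes were lower and the median of all genes lay between -0.003 and 0.012. With quantile normalization 6 of 8 were lower with Cas9 than in WT (median -0.08) and 7 of 8 with GCas9 than in WT (median -0.04), where 60.8% and 63.7% of all genes were lower and the medians of all genes were -0.044 and -0.043. Without Cas9 replicate 1, the lowest of the group for 8 of 8 members, the median of Cas9 against WT was -0.03 with 7 of 8 lower, and that of GCas9 against Cas9 was -0.04 with 5 of 8 lower. The 4 members that separated GCas9 from WT without overlap were Gad1, Gad2, Slc32a1 and Slc6a11. In set B, 7 of 8 were lower with Cas9 than with GFP (median -0.06), 4 of 8 with GCas9 than with GFP (median -0.00) and 2 of 8 with GCas9 than with Cas9 (median 0.05), where 51.3%, 50.9% and 49.4% of all genes were lower. Neuron markers in general were lower in 13 of 16 with Cas9 and 15 of 16 with GCas9 in set A against WT (medians -0.10 and -0.10; summed level 149016.7 to 178241.1 and 154647.3 to 176947.8, against 173243.5 to 183663.9), and their part in the members' values was not tested. Markers of other cells differed between the same groups. Oligodendrocyte markers were higher in 15 of 15 with Cas9 than in WT (median 0.49; summed level 241249.8 to 398011.6 against 206101 to 248818.7) and lower in 15 of 15 with GCas9 than with Cas9 (median -0.50; 211903.6 to 229562 with GCas9), and without Cas9 replicate 1 the medians were 0.32 and -0.34. That library, the lowest of the 3 Cas9 libraries for all 8 members, had the highest oligodendrocyte level of set A, 0.79 log2 units above the WT mean. Microglia markers were higher in 18 of 18 with Cas9 (median 0.58; 17916.4 to 25039.8 against 12851.2 to 15548.3) and in 18 of 18 with GCas9 (median 0.41; 16735.9 to 33833.8) than in WT, the latter 0.22 without GCas9 replicate 3 (16 of 18 higher). None of these genes was at 0, and their part in the members' values was not tested either. In set B the medians against GFP were 0.10 and -0.02 for oligodendrocyte and 0.01 and -0.07 for microglia markers, with Cas9 and GCas9. Rbfox3, which encodes the neuronal marker NeuN, was at 8042.9 ± 114 in WT, 7243.9 ± 779 with Cas9 and 7343.1 ± 520 with GCas9. In set B neuron markers were lower in 9 of 16 with Cas9 and 1 of 16 with GCas9 against GFP (medians -0.01 and 0.10).

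The other 39 genes of the pathway, from lists of transporters, enzymes, GABA-A and GABA-B receptor subunits, postsynaptic partners and chloride transporters, showed no call by limma, edgeR or DESeq2 in 198 tests (21, or 10.6%, at an unadjusted p under 0.05 by limma and 24, or 12.1%, by edgeR). Over all genes and the same 6 comparisons these shares were 6.79% by limma and 7.27% by edgeR, with 3.84% to 11.8% and 3.84% to 12.2% in single comparisons. Of the 34 tested in set A, 28 were lower with Cas9 than in WT (median -0.14), 28 with GCas9 than in WT (median -0.08) and 13 with GCas9 than with Cas9 (median 0.05). Without Cas9 replicate 1 these were 22 of 34 (median -0.04) for Cas9 against WT and 21 of 34 (median -0.04) for GCas9 against Cas9. Of the 32 tested in set B, 23 were lower with Cas9 than with GFP (median -0.07), 19 with GCas9 than with GFP (median -0.02) and 10 with GCas9 than with Cas9 (median 0.06). All 5 genes of the GABA-B receptor list, its subunits and their KCTD partners, were lower with Cas9 and with GCas9 than the controls in both sets, by amounts that did not pass (4 of 5 for GCas9 against WT with quantile normalization). With 1 library left out, 4 or 5 were lower for Cas9 against WT, 5 for GCas9 against WT, and 3 to 5 for each comparison with GFP. For GCas9 against GFP their differences ran from -0.36 to -0.01. Of all genes, 50.9% and 50.1% were lower with Cas9 and GCas9 than in WT, and 51.3% and 50.9% than with GFP. On the GABA-A receptor list, members included, 14 and 13 of 15 were lower than in WT, and 9 and 5 of 13 than with GFP.

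Small unadjusted p-values among these genes were spread over several of the lists. Kctd12, which speeds desensitization of GABA-B receptors, was at 430 ± 31.3 with GFP and 319.1 ± 47.8 with Cas9 in set B, without overlap (-0.44 ± 0.11, unadjusted p = 0.00125, limma adjusted p = 0.678). Gabbr2 and Kctd8 differed between Cas9 and WT by -0.29 ± 0.09 and -0.47 ± 0.15 (limma adjusted p = 0.405 each). Hap1, huntingtin-associated protein 1, which carries GABA-A receptors to the synapse, was at 5201.1 ± 853 in WT, 3641.6 ± 1050 with Cas9 and 5703.5 ± 1080 with GCas9 (0.67 ± 0.21 for GCas9 against Cas9, unadjusted p = 0.011, limma adjusted p = 0.89). In set B it was at 1716.4 ± 159 with GFP, 1221.4 ± 206 with Cas9 and 1195.8 ± 422 with GCas9 (-0.50 ± 0.20 and -0.58 ± 0.20 against GFP, limma adjusted p = 0.781 and 0.719). The difference between the sets in GCas9 against Cas9 was -0.75 ± 0.32 for Hap1 and did not pass (limma adjusted p = 0.992). Slc12a5, the chloride exporter KCC2 that sets the direction of GABA-A currents, was at 4389.9 with Cas9 and 5149.4 with GFP in set B (-0.24 ± 0.10, limma adjusted p = 0.782). Iqsec3, a partner of gephyrin at inhibitory synapses, differed by -0.20 ± 0.07 between GCas9 and WT (limma adjusted p = 0.724), and Gabra3 (alpha 3) by -0.13 ± 0.08 (limma adjusted p = 0.75). Slc6a13, which encodes the transporter GAT2 of the brain's coverings and vessels, differed by -0.46 ± 0.18 between GCas9 and Cas9 of set A, and Kctd8 by 0.39 ± 0.15 (limma adjusted p = 0.89 each). Gabarapl1, a trafficking partner of GABA-A receptors, differed by 0.18 ± 0.08 between GCas9 and GFP and by 0.17 ± 0.08 between GCas9 and Cas9 of set B (limma adjusted p = 0.742 and 0.995), and Nsf, of the vesicle fusion machinery, by 0.16 ± 0.07 in the latter (limma adjusted p = 0.995).

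For each member the 3 genes of most similar pattern were taken by the smaller of 2 Pearson correlations, over the 9 libraries of set A and the 12 of set B, among 11118 genes. Among those of Gabra4 were Nap1l2 (r = 0.92 in set A and 0.89 in set B) and Nmt2 (0.87 and 0.87), and among those of Slc32a1 were Lrfn4 (0.86 and 0.88) and Icam5 (0.92 and 0.85). Abat was most like Rab11fip4 (0.91 and 0.91), Adcy5, the adenylyl cyclase of spiny neurons, and Clstn3. Gad1 was most like Cend1 (0.91 and 0.82), Gad2 like Sv2b (0.87 and 0.85), Gabra2 like Rragb (0.81 and 0.88) and Gabrd like Ap1s1 (0.92 and 0.84). Slc6a11 had the least similar neighbours, with Arhgap35 first (0.78 and 0.81), then Vwa5b2 and Agpat3. Among the members themselves, the largest r over the libraries of set A was 0.92, for Gad2 with Slc32a1 (0.21 in set B) and for Abat with Gabrd (0.32 in set B). Gad2 and Slc32a1 were both lowest in Cas9 replicate 1 of set A, at -0.43 and -0.41 log2 units from the WT mean. The part of that library in their r was not tested. All these correlations are descriptions over libraries that share groups, scaling and dissection, and genes in them are not independent.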

How the data were processed

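RNA of mouse striatum was sequenced after SMARTer cDNA synthesis and Nextera XT library making, per the labels' protocols; the cDNA is amplified and carries no molecular identifiers. Tools named without roles, per the submitters' processing notes, were HTSeq, SAMtools, DESeq2, R 3.3.3 and STAR 2.5.2b, with the build GRCm38.p3. The deposited table gives, per gene symbol and library, a signal that is the read count divided by 1 size factor per library, scaled by the authors for each set apart. Every value was a whole number of reads within 0.001, so counts could be recovered. Of the symbols, 13121 had no read.

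Sets and groups follow the titles. Values were tested as log2(normalized count + 1), a scale that understates changes of low genes, with limma 3.58.1 (R 4.3.3, mean trend, 2-sided, 3 groups per set) for genes with a mean of at least 10 (15924 in set A, 15428 in set B, 16094 over both), with Benjamini-Hochberg adjustment over all of them. All 8 members passed that filter; 5 other pathway genes in set A and 7 in set B did not. Levels are given ± SD and fold changes ± SE. Alternatives were edgeR 4.0.16, DESeq2 1.42.0 (both on recovered counts), TMM scaling, quantile normalization, a pseudocount of 5, no filter, only the groups compared, a replicate block and leaving out each library. Fits were tested on simulated data for Cas9 against WT and Cas9 against GFP. There limma recovered 4% of genes changed 1.25-fold in each, and 38% and 42% of those changed 1.5-fold. Of its calls, 8% and 2.9% were false. These shares are over genes drawn at random from all that passed the filter, and recovery at the members' own levels was not simulated. The simulated counts were drawn independently for each library, without shifts shared by many genes of a library, so the shares of false calls hold for such data only. The lack of a call for a member does not show that it was unchanged.

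Libraries with the same number deviated together in every pair (r above 0.1) for GCas9 and WT of set A (0.112 to 0.284) and for GCas9 and Cas9 of set B (0.121 to 0.329). Not every pair did for GCas9 and Cas9 (0.09 to 0.644) or Cas9 and WT (-0.019 to 0.322) of set A. The same held for Cas9 and GFP (-0.027 to 0.346) and for GCas9 and GFP (-0.13 to 0.462) of set B. A pairing by number is not stated in the labels and did not hold for all groups of a set. The members and lists were chosen with earlier results of these data known. Named besides the members were the 3 pathway genes of smallest p in each comparison and, for levels, a fixed set of comparators; some of these genes, and a ratio that needs one, are not reported here. Promoters are from RefSeq, GRCm38.p6.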

Additional observations from a re-analysis of the deposited data

Results flagged for a closer look

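Slc6a11 in the Cas9 group of set B had 1 library far from the others, replicate 1 at 950.8 normalized counts against 570.1 to 617.6. Its gap to the next library was 0.875 of the range of the group, above Dixon's 95% critical value for a group of 4. Of 30 groups looked at this way, 1 was marked, and chance alone marks about 1 in 20. In the same library the astrocyte markers lay 0.21 log2 units above the GFP mean, and the other Cas9 libraries lay at -0.04 to 0.14. Its summed level of ependymal and choroid plexus markers was 10862.9, against 452.2 to 592.5 in the GFP libraries. Cas9 replicate 1 of set A, which stood apart by the same markers, had the lowest Slc6a11 value of its group, 2637.1.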

How the results depend on the processing

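Beside leaving out libraries, 8 alternatives were run, and of 448 member differences 7 turned sign, all of them close to 0. With quantile normalization the log2 fold change became 0.003 for Gad1 and 0.029 for Slc6a11 in Cas9 against WT, 0.001 for Abat in GCas9 against Cas9 of set A and -0.006 for Gad1 in GCas9 against GFP. With edgeR Slc6a11 in Cas9 against WT became 0.001, and for Gabrd the difference between the sets became 0.000 with TMM scaling and 0.009 with DESeq2. Calls moved more than differences did, and the cause was not tested. In Cas9 against WT limma called 1 gene, against 0 with a pseudocount of 5, 0 with edgeR, 116 with DESeq2, 2 with the replicate block and 6 when only the 2 groups compared were fitted. In GCas9 against WT 1 gene was called, against 218 with DESeq2 and 2 with the replicate block. No gene was called in the other comparisons, against 4 with DESeq2 in GCas9 against Cas9 of set A, 14 with DESeq2 in Cas9 against GFP, 41 with DESeq2, 5 with the replicate block and 7 with only the 2 groups in GCas9 against GFP, and 1 without the filter in the difference between the sets. Of the members, DESeq2 called 1 (Slc6a11) in GCas9 against WT and 1 (Slc6a11) in GCas9 against Cas9 of set A, and the replicate block changed the call of no member.

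With each library left out in turn, the genes called ran from 0 to 7 in Cas9 against WT, 0 to 2 in GCas9 against WT, 0 to 1 in GCas9 against Cas9 of set A, 0 to 2 in Cas9 against GFP, 0 to 3 in GCas9 against GFP and 0 to 1 in the difference between the sets. Of 448 member differences refitted that way 48 turned sign, and no member passed. In set A, Slc6a11 in Cas9 against WT ran from -0.032 to 0.027 and Gabrd in GCas9 against WT from -0.124 to 0.034, while GCas9 against Cas9 ran from -0.091 to 0.105 for Gabra4, -0.029 to 0.15 for Gabrd and -0.051 to 0.044 for Abat. Cas9 against GFP ran from -0.083 to 0.031 for Gad1, -0.043 to 0.029 for Gabra4, -0.306 to 0.021 for Gabra2 and -0.215 to 0.03 for Slc6a11. GCas9 against GFP ran from -0.019 to 0.056 for Gad1, -0.145 to 0.117 for Gabra2, -0.08 to 0.008 for Abat, -0.025 to 0.109 for Gabra4 and -0.094 to 0.002 for Slc32a1. GCas9 against Cas9 of set B ran from -0.011 to 0.103 for Gad1 and -0.016 to 0.117 for Gabra4. The difference between the sets ran from -0.106 to 0.073 for Gabrd, -0.057 to 0.138 for Gabra4 and -0.011 to 0.235 for Slc6a11. The log2 ratio of Gad1 to Gad2 ran from -0.057 to 0.02 in GCas9 against WT and -0.022 to 0.106 in Cas9 against GFP. The log2 ratio of Gabrd to Gabra4 ran from -0.031 to 0.036, -0.051 to 0.098 and -0.061 to 0.088 in Cas9 against WT, GCas9 against WT and GCas9 against Cas9 of set A, and from -0.011 to 0.063, -0.032 to 0.093 and -0.068 to 0.057 in Cas9 against GFP, GCas9 against GFP and GCas9 against Cas9 of set B. Set B is shallower, and in its GFP libraries 607 to 866 reads lay behind Slc32a1 and 559 to 847 behind Slc6a11. In its Cas9 libraries these were 328 to 574 and 440 to 842 reads.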

Other observations

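The difference in normalized count between GFP libraries of set B and WT libraries of set A was taken relative to its median over 12941 genes, since the sets were scaled apart. Relative to that median, in log2 units, Slc32a1 lay at -1.98, lower than all but 3.83% of genes, and Slc6a11 at -0.73, while Gad1 lay at 0.06, Abat at 0.15 and Gabra2 at 0.47. Across the 12362 genes with a transcript in the annotation, the difference between the sets had a Spearman correlation of 0.01 with GC content and of -0.35 with transcript length, across genes, which are not independent replicates. Slc32a1 has a GC content of 61.9% and a transcript of 2797 bases. Control, depth and library preparation cannot be told apart between the sets.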
